A study of Mus musculus with 24 samples.

Results

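The p53 pathway and target genes described here are 32 mouse genes: Trp53, which encodes p53, its regulators, and genes that p53 is known to switch on. They were picked by gene symbol from the 22429 genes counted in liver, and all 32 were in the table. 30 of them passed the filter on low counts, among 12690 genes tested. Pmaip1, which encodes the apoptosis protein NOXA, and Cd80, a ligand that costimulates T cells, did not pass, with at most 0.536 and 0.499 CPM (normalised counts per 1000000 counts) in any of the 24 libraries. The libraries were made from polyA RNA of livers of male F1 hybrid C57BL6J/FVBN mice, 4 libraries in each of 6 groups. Ercc1 d/- mice are a DNA-repair-deficient progeroid line: ERCC1 and its partner XPF cut the damaged strand in nucleotide excision repair, and the mutants carry the d allele over a null allele in the whole animal. The 3 mutant groups were 16 weeks old on 30% dietary restriction (mutant DR), 16 weeks old and fed ad libitum (mutant AL), and 7 weeks old and fed ad libitum (7-week mutant). The 3 Ercc1 +/+ groups were 16 weeks old on 30% restriction (wild-type DR), 104 weeks old and fed ad libitum (104-week wild type), and 16 weeks old and fed ad libitum (wild-type AL). Restriction started at 7 weeks with 10%, went up by 10% each week and stayed at 30% from 9 weeks. It left the mutants 1.6 g of food a day, where free-feeding mutants ate 2.3 g, and the wild types 2.1 g, where free-feeding ones ate 3.0 g. Food came shortly before the dark phase, except on the last day, when none was given before the liver was taken.

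p53 is a transcription factor that is kept scarce by the ubiquitin ligase MDM2 and held inactive by MDM4, and that builds up when DNA is damaged. It then binds response elements near its target genes, whose products stop the cell cycle (p21), start apoptosis (PUMA, BAX, death receptors), adjust metabolism and repair, and, through MDM2 itself, switch p53 off again. p53 is controlled mostly at the level of its protein, so the level of Trp53 mRNA is not a measure of its activity.

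The deposited libraries held between 13269792 and 20624803 counts, of which the 32 genes took between 5545 and 13757. All comparisons came from 1 edgeR quasi-likelihood fit over the 24 libraries with 18 residual degrees of freedom, and a gene was called at a Benjamini-Hochberg adjusted p under 0.05 over all genes tested. The labels number the libraries of a group without saying what separates them, so the p-values measure the spread between these libraries. Ercc1 had 2.08, 1.08, 1.42 and 1.46 CPM in mutant AL livers, against 3, 2.06, 2.81 and 2.47 in wild-type AL livers. The Ercc1 log2 fold change was -0.78 ± 0.28 (SE), and did not pass (adjusted p = 0.0754). Without mutant AL replicate 1 it was -0.97 (adjusted p = 0.0497). It had 1.63, 1.29, 1.98 and 1.3 CPM in mutant DR livers, against 4.46, 2.15, 3.66 and 3.8 in wild-type DR livers. The Ercc1 log2 fold change was -1.18 ± 0.27 (adjusted p = 0.0033). The 5 hepatocyte markers (Alb, Apoa1, Ttr, Serpina1a, Cps1) summed to between 71300 and 155000 CPM in every library. They summed to 86500 to 113000 CPM in mutant DR livers, against 118000 to 155000 in wild-type DR livers, with 3 of the 5 called lower and 1 higher. In mutant AL livers they summed to 79500 to 101000 CPM, against 97900 to 117000 in wild-type AL livers, with 1 of the 5 called lower and 0 higher. Alb was the largest part of each sum, and 3 of the 5 markers were called lower and 1 higher in mutant DR than in mutant AL livers. Their part in the p53 values was not tested. In whole tissue, fewer cells of a type and less RNA per cell cannot be told apart, here or for any gene below.

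The promoters of these genes carry the p53 response element more often than promoters at large. RefSeq (GRCm38.p6) gave promoter windows, 250 bases before to 50 after a transcription start, for 26 of the 32 genes, in 35 windows. The element searched is the p53 response element, 20 bases made of 2 adjoining copies of the 10-base half-site consensus with no spacer. The core C and G of both half-sites were required and at most 3 other bases could differ. Since the consensus is its own reverse complement, 1 scan reads both strands. It was present in 11 of 35 windows (31.4%), against 453 of 32851 windows of all promoters (1.38%), and with at most 1 differing base in 3 windows (8.57%), against 22 of all (0.067%). Many of these genes became known as p53 targets through such elements, so the share describes the list. Of the members called below in a comparison between genotypes, 6 of 14 with a promoter window held the element, and of the other members 4 of 12. Those 6 are shown because their transcripts carry much of what follows, with Cdkn1a beside them as the best-known target. Each line has the 20 bases of the element in capitals with 5 flanking bases on each side, read 5′ to 3′ on the strand of the gene.
Ccng1: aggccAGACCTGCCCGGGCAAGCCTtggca
Gtse1: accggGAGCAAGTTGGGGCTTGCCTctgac
Ckap2: tctgaAGACATGTCCTGACTTGTCAagcct
Aen: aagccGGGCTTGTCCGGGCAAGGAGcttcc
Bbc3: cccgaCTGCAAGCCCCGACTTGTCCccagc
Sesn1: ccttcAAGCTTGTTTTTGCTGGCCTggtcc
Cdkn1a: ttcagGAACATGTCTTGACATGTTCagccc

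Ccng1 (chr11:40755457-40755486, minus strand), Gtse1 (chr15:85859940-85859969, plus strand) and Cdkn1a (chr17:29090923-29090952, plus strand) differed from the consensus at 1 base, Ckap2 (chr8:22185998-22186027, minus strand) at 2, and Aen (chr7:78895932-78895961, plus strand), Bbc3 (chr7:16309481-16309510, plus strand) and Sesn1 (chr10:41887261-41887290, plus strand) at 3. The Ccng1 element began 195 bases upstream of the start, that of Ckap2 203, that of Sesn1 173 and that of Bbc3 97 bases upstream, and that of Gtse1 at the base before the start. Positions are from the annotated start nearest to the element; Gtse1, Bbc3 and Sesn1 have other starts, whose windows did not hold it. The Aen element lay 11 bases into the transcript of 1 start and 121 bases upstream of another. Cdkn1a has 2 annotated starts 2790 bases apart, and the element stood 51 bases before the upstream one, with none in the window of the downstream one. No match in these windows says only that the letters are not there.

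With free feeding at 16 weeks, the mutant liver had more mRNA of p53 target genes than the wild-type liver, most of all of Psrc1, Phlda3 and Tnfrsf10b. Of the 30 genes tested, 13 were higher in mutant AL than in wild-type AL livers, where 5.10% of all genes tested were called higher, and Perp was lower, where 4.85% of all genes were (9.94% in either direction). The median log2 fold change of the 30 genes was 0.67, against 0.02 over all genes. By role, 1 of 4 regulators, 5 of 8 cell cycle genes, 6 of 12 apoptosis genes and 1 of 6 metabolism and repair genes were higher. Mutant AL replicate 1 stood apart: it was the highest of its group for 17 of the 30 genes (56.7%), against 32.3% of all genes. Without it 10 of the 30 were called higher and Perp lower. Over all genes, 461 were called higher without it, against 647 with all libraries. Over the 8 fits that each left out 1 library, 10 to 13 members were called, fewest without wild-type AL replicate 3. In those 8 fits 871 to 1082 of all genes were called, against 1262 with all libraries. Over the 4 mutant AL libraries the median difference of the 30 genes from the wild-type AL mean was 1.04, 0.52, 0.58 and 0.63 on the log2 scale, against 0.01 to 0.02 over all genes.

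**Figure D1:**
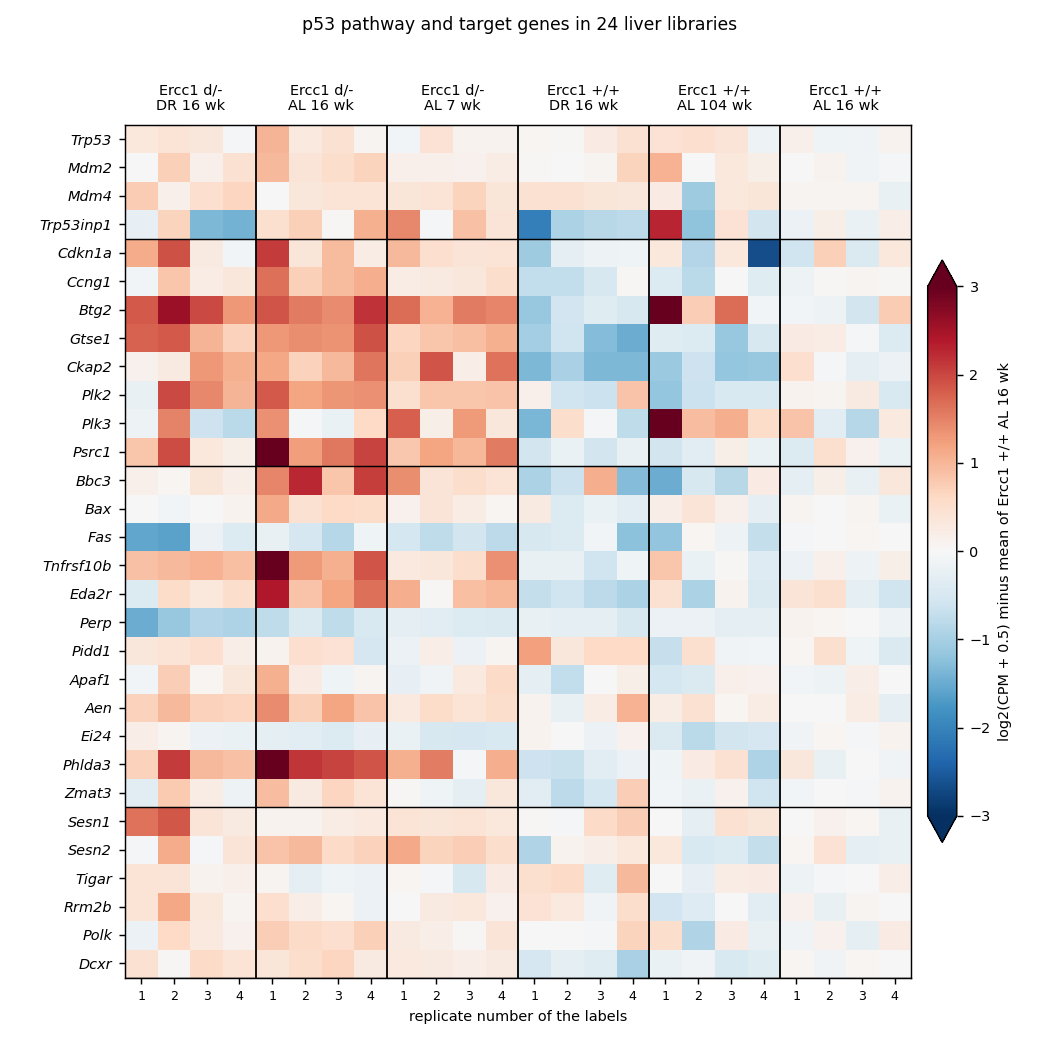
Level of the 30 tested p53 pathway genes (rows, grouped by role) in each of the 24 libraries (columns, grouped by genotype, diet and age), as log2(CPM + 0.5) minus the mean of the wild-type AL libraries. The mutant columns are mostly above that mean, with mutant AL replicate 1 and mutant DR replicate 2 the highest in 17 and 19 of the 30 rows of their groups.

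Trp53 and 2 of its 3 regulators did not pass the test. Trp53 had 26.6, 15.9, 18 and 13.7 CPM in mutant AL livers, against 14.3, 11.7, 11.9 and 13.9 in wild-type AL livers, with a log2 fold change of 0.52 ± 0.18 (adjusted p = 0.0754). Replicate 1 was the highest, and the lowest mutant library lay within the wild-type range. Without mutant AL replicate 1 the value was 0.29 (adjusted p = 0.376), and without replicate 4 it was 0.64 (adjusted p = 0.0352). Mdm2, which both restrains p53 and is switched on by it, rose: 45.6, 30.6, 33.4 and 36.8 CPM in mutant AL livers, against 23.4, 24.9, 21.6 and 22.6 in wild-type AL livers. The Mdm2 log2 fold change was 0.66 ± 0.20 (adjusted p = 0.0309). The groups did not overlap, yet the call was lost without any single library except mutant AL replicates 2 and 3, with log2 fold changes between 0.54 and 0.70 and adjusted p between 0.0516 and 0.128. Mdm4, which blocks the activation domain of p53, averaged 15.6 ± 2.11 CPM in mutant AL and 12.6 ± 1.33 in wild-type AL livers (SD, n = 4 each; adjusted p = 0.408). Trp53inp1, a stress-induced partner of p53, averaged 14.1 ± 4.25 CPM in mutant AL and 9.1 ± 1.42 in wild-type AL livers (adjusted p = 0.573).

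Among the cell cycle genes, those of microtubules and mitosis rose with cyclin G1. Psrc1, which binds spindle microtubules, had 5.98, 1.25, 1.71 and 2.48 CPM in mutant AL livers, against 0.0556, 0.532, 0.299 and 0.137 in wild-type AL livers. The Psrc1 log2 fold change was 3.47 ± 0.69 (adjusted p = 0.0015). All mutant libraries were above all wild-type ones, replicate 1 by far the highest. The value was 2.81 without that library and 4.07 without wild-type AL replicate 2, and called both times. Gtse1, which acts in the G2 phase and binds p53, had 2.96, 3.19, 3.06 and 4.77 CPM in mutant AL livers, against 1.17, 1.13, 0.838 and 0.548 in wild-type AL livers. The Gtse1 log2 fold change was 1.91 ± 0.40 (adjusted p = 0.0025). Ckap2, a spindle-stabilising protein, had 2.33, 1.54, 1.99 and 3.37 CPM in mutant AL livers, against 1.28, 0.732, 0.539 and 0.617 in wild-type AL livers. The Ckap2 log2 fold change was 1.52 ± 0.49 (adjusted p = 0.0463). Neither gene's groups overlapped, but the Ckap2 call was lost without mutant AL replicate 1, 3 or 4 or wild-type AL replicate 2, 3 or 4 (log2 fold change 1.28 to 1.58, adjusted p 0.069 to 0.136). Ccng1, a cyclin that p53 induces in most tissues, had 66.5, 34.4, 40.7 and 44.9 CPM in mutant AL livers, against 18.7, 21.4, 21.9 and 21.4 in wild-type AL livers. The Ccng1 log2 fold change was 1.16 ± 0.21 (adjusted p = 6.58e-04). Plk2, a polo-like kinase, had 38.5, 24.1, 26.4 and 27.3 CPM in mutant AL livers, against 11.2, 11, 12.5 and 7.33 in wild-type AL livers. The Plk2 log2 fold change was 1.47 ± 0.35 (adjusted p = 0.00893). For both genes every mutant library was above every wild-type one.

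Cdkn1a, which encodes the cell cycle inhibitor p21, did not pass with free feeding. It had 54.3, 16.1, 24.2 and 14.6 CPM in mutant AL livers, against 8.06, 20.5, 8.98 and 15.6 in wild-type AL livers. The Cdkn1a log2 fold change was 1.04 ± 0.55 (adjusted p = 0.257). Mutant replicate 1 was the highest of the 8 libraries, and mutant replicates 2 and 4 lay within the wild-type range. Btg2, an antiproliferative gene, averaged 8.03 ± 2.05 CPM in mutant AL and 2.12 ± 1.09 in wild-type AL livers without overlap (adjusted p = 0.18), and Plk3, another polo-like kinase, 61.3 ± 32.4 CPM in mutant AL and 45.3 ± 22.9 in wild-type AL livers with overlap (adjusted p = 0.742).

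In the apoptosis group the survival brake Phlda3 and the death receptor Tnfrsf10b rose most. Phlda3, whose product competes with the survival kinase AKT for the membrane, had 22.8, 5.47, 4.99 and 4.51 CPM in mutant AL livers, against 1.22, 0.665, 0.838 and 0.754 in wild-type AL livers. The Phlda3 log2 fold change was 3.42 ± 0.55 (adjusted p = 1.78e-04). Tnfrsf10b, the receptor of the death ligand TRAIL, had 5.41, 1.31, 1.07 and 2.29 CPM in mutant AL livers, against 0.167, 0.333, 0.18 and 0.343 in wild-type AL livers. The Tnfrsf10b log2 fold change was 3.29 ± 0.60 (adjusted p = 5.67e-04). Mutant replicate 1 was the highest for both, and without it the log2 fold changes were 2.50 (adjusted p = 8.01e-04) and 2.60 (adjusted p = 0.005). Bax, which forms pores in the mitochondrial outer membrane, had 30.9, 18.9, 20.9 and 20.4 CPM in mutant AL livers, against 14.6, 13.9, 14.6 and 11.8 in wild-type AL livers. The Bax log2 fold change was 0.73 ± 0.17 (adjusted p = 0.00635). Aen, a nuclease linked to apoptosis, had 38.5, 23.4, 33 and 25.9 CPM in mutant AL livers, against 14.3, 14.4, 16.6 and 11.7 in wild-type AL livers. The Aen log2 fold change was 1.08 ± 0.20 (adjusted p = 8.48e-04). Bbc3, which encodes PUMA, a trigger of BAX, averaged 8.93 ± 3.8 CPM in mutant AL and 2.34 ± 0.593 in wild-type AL livers (SD, n = 4 each), a log2 fold change of 1.94 ± 0.49 (adjusted p = 0.0129). Eda2r, a receptor of ectodysplasin A2, averaged 2.54 ± 1.51 CPM in mutant AL and 0.52 ± 0.356 in wild-type AL livers, a log2 fold change of 2.26 ± 0.58 (adjusted p = 0.0123). Without mutant AL replicate 1 it was 1.79 (adjusted p = 0.0759) and without wild-type AL replicate 3 it was 2.07 (adjusted p = 0.052). For all of these 6 genes the mutant and wild-type libraries did not overlap. Of the 30 genes, 17 had every mutant AL library above every wild-type AL one, where 11.0% of all genes tested did.

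Perp was the only member that edgeR called lower with free feeding. Perp, a membrane protein of desmosomes known both as a p53 target and for holding epithelia together, had 23.7, 29.9, 23.6 and 29.4 CPM in mutant AL livers, against 43.1, 42, 40.2 and 36.3 in wild-type AL livers. The Perp log2 fold change was -0.60 ± 0.12 (adjusted p = 0.00225). All mutant libraries were below all wild-type ones. Ei24, a protein of the endoplasmic reticulum, averaged 135 ± 7.3 CPM in mutant AL and 169 ± 11 in wild-type AL livers, and did not pass with edgeR (log2 fold change -0.32 ± 0.11, adjusted p = 0.0697), although DESeq2 called it lower (adjusted p = 0.0397). Fas, a death receptor, Pidd1, Apaf1 and Zmat3 had log2 fold changes of -0.41, 0.17, 0.48 and 0.65, with adjusted p from 0.194 to 0.777. For Ei24 and Fas, as for Perp, every mutant AL library was below every wild-type AL one. These were 3 of the 30 genes, where 11.4% of all genes tested had this pattern.

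Of the metabolism and repair genes, Dcxr alone was called with free feeding. Dcxr, a reductase of sugars and dicarbonyls, had 92, 103, 112 and 85.6 CPM in mutant AL livers, against 74.5, 66.4, 73.7 and 70.2 in wild-type AL livers. The Dcxr log2 fold change was 0.46 ± 0.13 (adjusted p = 0.026). The groups did not overlap, and the call was lost without mutant AL replicate 2 or 3 or wild-type AL replicate 2, 3 or 4 (log2 fold change 0.39 to 0.48, adjusted p 0.0525 to 0.099). Sesn2, a sestrin that restrains the growth kinase mTORC1, averaged 6.51 ± 0.848 CPM in mutant AL and 3.65 ± 0.967 in wild-type AL livers (adjusted p = 0.0848), and Polk, a DNA polymerase that copies past lesions, 7.77 ± 0.62 CPM in mutant AL and 4.89 ± 0.845 in wild-type AL livers (adjusted p = 0.0875). Sesn1, Tigar and Rrm2b had log2 fold changes between -0.13 and 0.21, with adjusted p from 0.721 to 0.782.

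Under restriction the mutant again had more mRNA of cell cycle targets than the wild type, while PUMA, BAX and MDM2 mRNA did not pass the test. 11 of the 30 genes were higher in mutant DR than in wild-type DR livers, where 9.58% of all genes tested were, and Perp was lower, where 8.70% were. The median log2 fold change was 0.52, against -0.03 over all genes. By role, 0 of 4 regulators (0 with an unadjusted p under 0.05, and 0 by DESeq2), 6 of 8 cell cycle genes, 3 of 12 apoptosis genes and 2 of 6 metabolism and repair genes were higher. Mutant DR replicate 2 was the highest of its group for 19 of the 30 genes (63.3%), against 27.4% of all genes, and wild-type DR replicate 4 for 17 (56.7%), against 30% of all genes. Without mutant DR replicate 2, 8 of the 30 genes were called higher and Perp lower, and without wild-type DR replicate 4, 12 higher and Perp lower. Of all genes, 1094 and 1060 were then called higher, against 1216 with all libraries. The comparison has no library in common with that under free feeding: 9 genes were called higher in both, which is 69.2% of the 13 with free feeding and 81.8% of the 11 under restriction, where of all genes called higher 343 were shared, 53% and 28.2%. Those 9 were Ccng1, Ckap2, Dcxr, Eda2r, Gtse1, Phlda3, Plk2, Psrc1 and Tnfrsf10b.

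**Figure D2:**
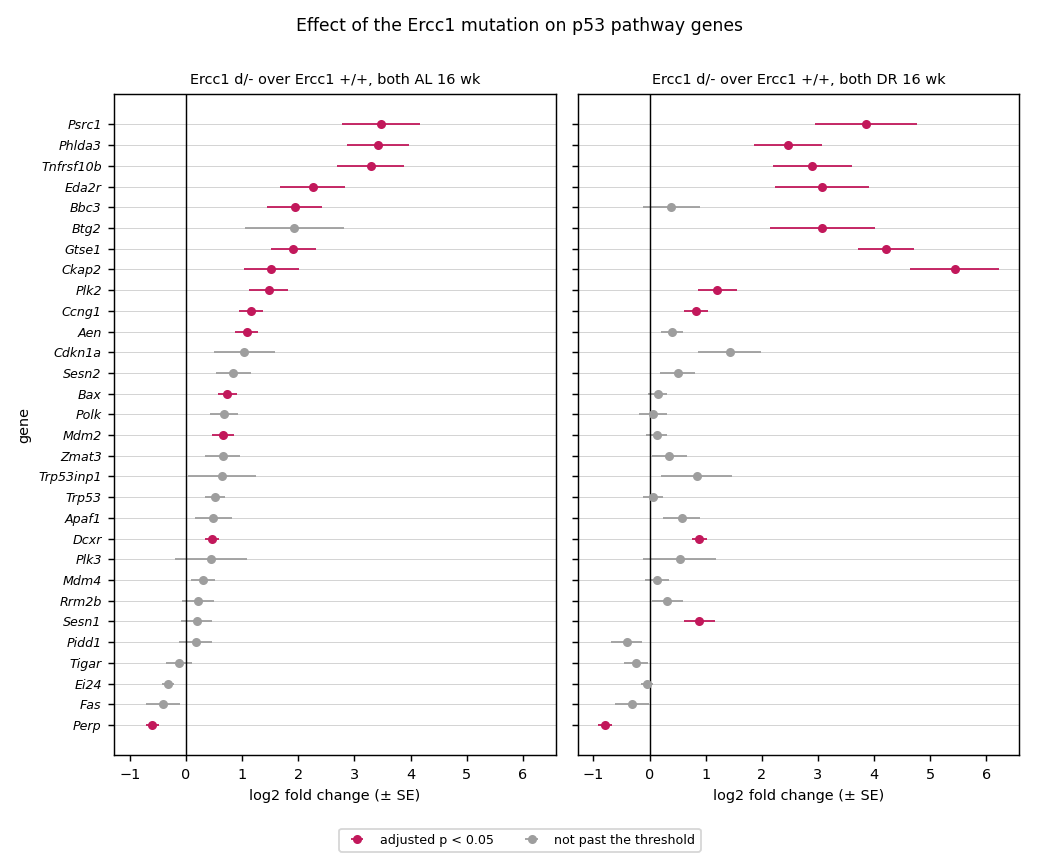
Log2 fold change (± SE) of Ercc1 d/- over Ercc1 +/+ livers for the 30 tested genes, with free feeding on the left and under restriction on the right, each group n = 4; coloured points passed the adjusted p of 0.05. Ckap2 and Gtse1 lie at 1.52 and 1.91 on the left and at 5.44 and 4.21 on the right, while Bbc3, Bax and Aen are called on the left only.

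Gtse1 and Ckap2 differed most between the restricted groups. Gtse1 had 4.26, 4.5, 2.33 and 1.75 CPM in mutant DR livers, against 0.19, 0.43, 0.0642 and 0 in wild-type DR livers. The Gtse1 log2 fold change was 4.21 ± 0.50 (adjusted p = 2.96e-06). Ckap2 had 0.876, 1.02, 2.63 and 2.14 CPM in mutant DR livers, against 0, 0.143, 0 and 0 in wild-type DR livers. In raw counts that was 112 in the 4 mutant DR libraries and 2 in the 4 wild-type DR libraries, both in replicate 2. The mutant level was 54.4 times the wild-type one, with exact 95% bounds of 14.7 and 455 for counting error (adjusted p = 3.23e-05). The fitted log2 fold change of Ckap2 was 5.44 ± 0.79; without wild-type DR replicate 2 the fit gave 7.75 for Ckap2 and 5.00 for Gtse1. Psrc1 had 0.817, 2.36, 0.409 and 0.324 CPM in mutant DR livers, against 0, 0.143, 0 and 0.127 in wild-type DR livers. The Psrc1 log2 fold change was 3.86 ± 0.91 (adjusted p = 0.00409), and 2.93 without mutant DR replicate 2 (adjusted p = 0.03). For these 3 genes all mutant libraries were above all wild-type ones. Under restriction 9 of the 30 genes had this pattern, where 8.67% of all genes tested did. The reverse held for 1, Perp, where it held for 7.11% of all genes. The 12 markers of dividing cells moved with them: they summed to between 13.7 and 20.5 CPM in mutant DR livers, against 2.14 to 3.99 in wild-type DR livers, where Ccnb1 and Bub1 were at 0. With edgeR, 9 of the 11 markers tested were called higher, and the part of dividing cells in the result was not tested.

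The other cell cycle genes differed less or not beyond their spread. Ccng1 had 19.6, 37.6, 24.4 and 26.6 CPM in mutant DR livers, against 12.2, 12.3, 14.8 and 21.5 in wild-type DR livers. The Ccng1 log2 fold change was 0.83 ± 0.21 (adjusted p = 0.00833). Plk2 had 8.7, 42.2, 28.8 and 21.3 CPM in mutant DR livers, against 11.5, 6.66, 6.42 and 18.9 in wild-type DR livers. The Plk2 log2 fold change was 1.21 ± 0.35 (adjusted p = 0.019). Both overlapped between the groups, and the Plk2 call was lost without mutant DR replicate 2 or wild-type DR replicate 2 or 3 (0.84 to 1.03, adjusted p 0.0613 to 0.0943). In a fit of the 2 groups alone neither passed (adjusted p = 0.0635 for Ccng1 and 0.147 for Plk2). Cdkn1a had 27.2, 47.9, 15.1 and 11.6 CPM in mutant DR livers, against 5.6, 10, 11.2 and 11.2 in wild-type DR livers; every mutant library was above every wild-type one, and the log2 fold change of 1.43 ± 0.56 did not pass (adjusted p = 0.0806). Btg2 had 8.29, 14.1, 9.16 and 5.57 CPM in mutant DR livers, against 0.617, 1.15, 1.41 and 1.27 in wild-type DR livers, without overlap. The Btg2 log2 fold change was 3.08 ± 0.94 (adjusted p = 0.027). The Btg2 call was lost with no filter on low counts (adjusted p = 0.0502) and without mutant DR replicate 2 or any 1 wild-type DR library (2.81 to 3.23, adjusted p 0.0514 to 0.0683).

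**Figure D3:**
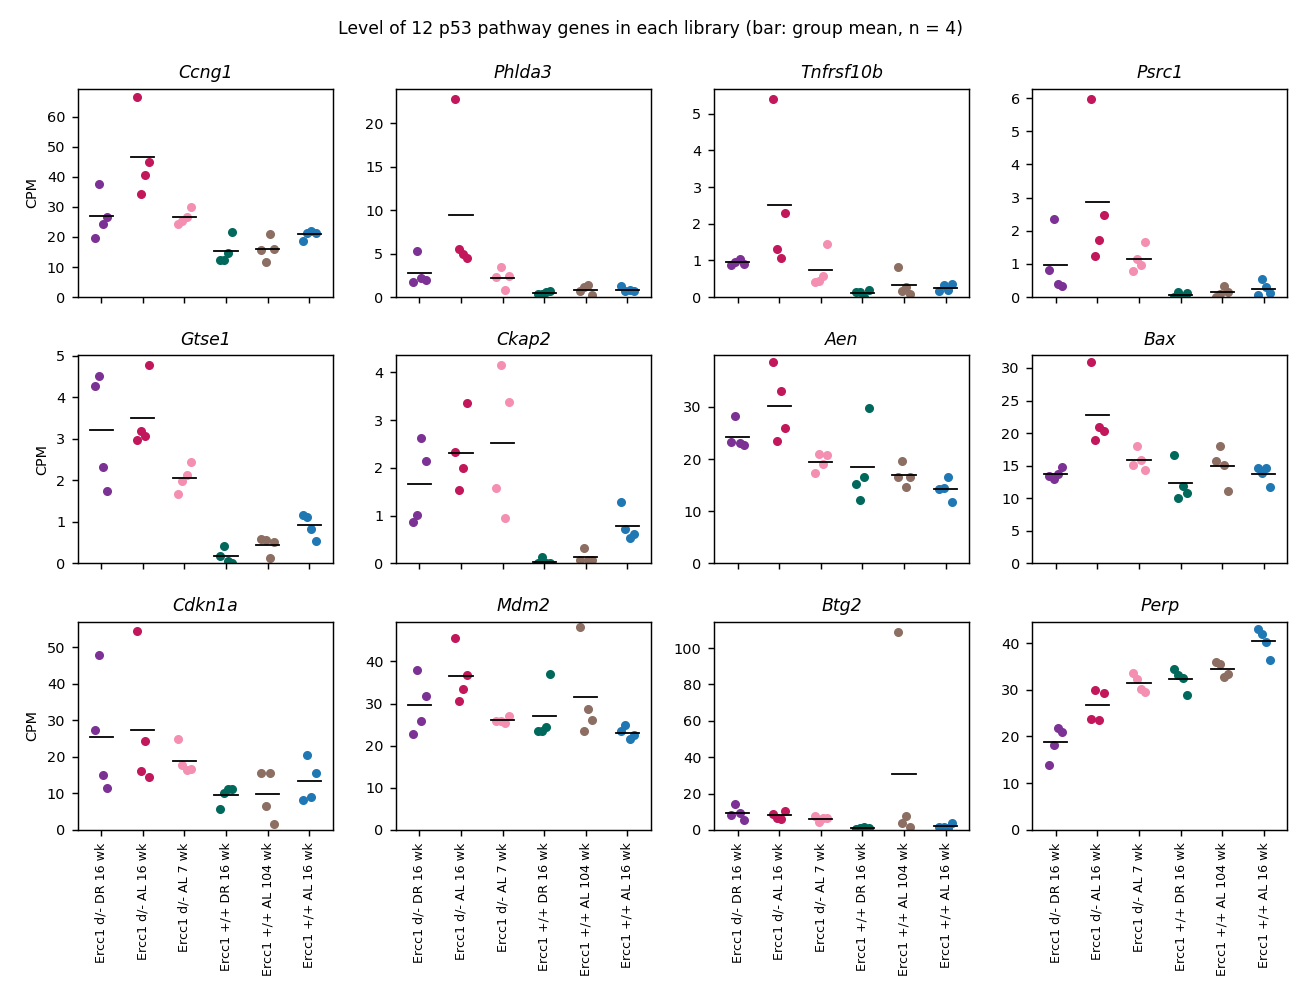
CPM of 12 p53 pathway genes in each library (points) with group means (bars), n = 4 libraries a group, in the order mutant DR, mutant AL, 7-week mutant, wild-type DR, 104-week and wild-type AL. Ckap2 reads 0 in 3 of 4 wild-type DR libraries, and the 104-week Btg2 mean of 30.4 CPM rests on a library at 109.

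Of the apoptosis genes, the receptors Tnfrsf10b and Eda2r and Phlda3 were higher in the mutant under restriction. Phlda3 had 1.69, 5.31, 2.16 and 2.01 CPM in mutant DR livers, against 0.38, 0.358, 0.578 and 0.697 in wild-type DR livers. The Phlda3 log2 fold change was 2.47 ± 0.60 (adjusted p = 0.00539). Tnfrsf10b had 0.876, 0.965, 1.05 and 0.907 CPM in mutant DR livers, against 0.142, 0.143, 0 and 0.19 in wild-type DR livers. The Tnfrsf10b log2 fold change was 2.90 ± 0.70 (adjusted p = 0.00485). Neither gene overlapped between the groups, and neither did Eda2r, with a log2 fold change of 3.07 ± 0.84 (adjusted p = 0.0126). Bax had 13.5, 12.9, 13.8 and 14.8 CPM in mutant DR livers, against 16.6, 10.1, 11.9 and 10.8 in wild-type DR livers, and Bbc3 averaged 2.71 ± 0.284 CPM in mutant DR and 2.08 ± 2.27 in wild-type DR livers. Both overlapped, with adjusted p of 0.593 for Bax and 0.647 for Bbc3. Aen had 23.2, 28.3, 23 and 22.6 CPM in mutant DR livers, against 15.2, 12.1, 16.6 and 29.7 in wild-type DR livers, with overlap (adjusted p = 0.175). Perp had 14, 18.2, 21.8 and 21 CPM in mutant DR livers, against 34.5, 33.2, 32.6 and 28.9 in wild-type DR livers, all mutant libraries below all wild-type ones. The Perp log2 fold change was -0.79 ± 0.13 (adjusted p = 9.66e-05).

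p53 and its regulators showed no difference that passed under restriction. Trp53 had 16.1, 17.2, 16.3 and 12.5 CPM in mutant DR livers, against 13.4, 13.3, 15.4 and 17.8 in wild-type DR livers, and Mdm2 22.8, 38, 25.9 and 31.9 CPM in mutant DR livers, against 23.6, 23.4, 24.5 and 37.1 in wild-type DR livers. The groups overlapped for both (adjusted p = 0.874 and 0.704), and without mutant DR replicate 2 the log2 fold change of Mdm2 was -0.02 instead of 0.13. Dcxr had 97.2, 73.3, 106 and 94.2 CPM in mutant DR livers, against 49.7, 59, 55 and 36.2 in wild-type DR livers, without overlap. The Dcxr log2 fold change was 0.89 ± 0.13 (adjusted p = 4.82e-05). Sesn1, a sestrin like Sesn2, had 19, 22.5, 7.76 and 7.13 CPM in mutant DR livers, against 5.98, 5.66, 8.86 and 9.95 in wild-type DR livers. The Sesn1 log2 fold change was 0.89 ± 0.27 (adjusted p = 0.0245). Its groups overlapped, replicate 2 was the highest, and the call was lost in a fit of the 2 groups alone (adjusted p = 0.18) and without mutant DR replicate 1 or 2 or wild-type DR replicate 1 or 2 (0.57 to 0.79, adjusted p 0.0697 to 0.142).

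Under restriction, 5 of the 12 apoptosis genes were lower in mutant livers (Bax, Bbc3, Eda2r, Perp and Phlda3). In wild-type livers Ckap2, Gtse1, Dcxr and Eda2r were lower. Of the 30 genes, 6 were lower and 1 higher in mutant DR than in mutant AL livers, where 6.33% of all genes were lower and 4.91% higher, with a median log2 fold change of -0.31, against 0.00 over all genes. In the wild type 4 were lower and 0 higher in DR than in AL livers, where 7.30% of all genes were lower and 6.30% higher, with a median of -0.20, against 0.04. For the count of 0 higher by edgeR, 2 genes had an unadjusted p under 0.05 in that direction and DESeq2 called 1, Pidd1. In the wild type DESeq2 also called Perp lower (log2 fold change -0.33, adjusted p = 0.0443). Every wild-type DR library was below every wild-type AL one for Perp, as for 6 of the 30 genes and 9.06% of all genes. The 2 restricted groups and the 2 freely fed groups are those of the comparisons above, so these values are not independent of them.

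In the mutant, Bax had 13.8 ± 0.799 CPM in DR livers, against 22.8 ± 5.48 in AL livers, a log2 fold change of -0.73 ± 0.17 (adjusted p = 0.00562). Bbc3 had 2.63, 2.41, 3.09 and 2.72 CPM in mutant DR livers, against 7.18, 12.8, 4.49 and 11.2 in mutant AL livers. The Bbc3 log2 fold change was -1.72 ± 0.49 (adjusted p = 0.022). All DR libraries were below all AL libraries for both genes, and likewise for Eda2r (-1.87 ± 0.56, adjusted p = 0.0289) and Perp (-0.51 ± 0.13, adjusted p = 0.00825). In the mutant 5 of the 30 genes had this pattern, where 9.60% of all genes tested did. Phlda3 (-1.75 ± 0.49, adjusted p = 0.0214) and Ccng1 (-0.78 ± 0.21, adjusted p = 0.0153) were lower with overlap between the groups. Sesn1 was higher, at 14.1 ± 7.81 CPM in mutant DR and 6.65 ± 0.473 in mutant AL livers, a log2 fold change of 1.09 ± 0.28 (adjusted p = 0.0103). Mutant AL replicate 1 weighs on this comparison: without it the Phlda3 value was -0.83 (adjusted p = 0.209), that of Eda2r -1.40 (adjusted p = 0.124) and that of Ccng1 -0.56 (adjusted p = 0.0801), and 4 of the 30 genes were called. Of the other single libraries, mutant DR replicate 1 took the call from Phlda3, Eda2r, Ccng1 and Bbc3 (-1.57, -1.59, -0.66 and -1.71), replicate 2 from Bbc3 and Sesn1 (-1.67 and 0.77), replicate 3 from Phlda3 and Eda2r (-1.64 and -1.88) and replicate 4 from Phlda3 and Bbc3 (-1.62 and -1.72). Mutant AL replicate 2 took it from Bbc3 (-1.49) and replicate 4 from Bbc3 and Eda2r (-1.59 and -1.87). Without mutant DR replicate 1, 3 of the 30 genes were called. Of all genes, 1129 were called without that library and 1344 without mutant AL replicate 1, against 1426 with all libraries. In a fit of the 2 mutant groups alone Ccng1, Perp, Phlda3 and Sesn1 did not pass (adjusted p from 0.0636 to 0.0994).

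In the wild type, Ckap2 and Gtse1 fell under restriction. The 4 wild-type DR libraries held 2 counts of Ckap2, against 52 in the 4 wild-type AL libraries, which is 0.0373 times the wild-type AL level, with exact 95% bounds of 0.0044 and 0.142 for counting error (adjusted p = 0.00119). Gtse1 averaged 0.171 ± 0.19 CPM in wild-type DR and 0.921 ± 0.289 in wild-type AL livers, a log2 fold change of -2.42 ± 0.55 (adjusted p = 0.0044). Without wild-type DR replicate 2 the log2 fold changes were -6.70 for Ckap2 and -3.20 for Gtse1. Dcxr (-0.51 ± 0.13, adjusted p = 0.0126) was lower as well, and its call was lost without wild-type DR replicate 4 (-0.38, adjusted p = 0.0563) and in a fit of the 2 groups alone (adjusted p = 0.0625). Eda2r was lower too, with a log2 fold change of -2.68 ± 0.87 (adjusted p = 0.0415) with overlapping groups, and lost its call without wild-type DR replicate 1, 3 or 4 or wild-type AL replicate 1 or 2 (-2.84 to -2.31, adjusted p 0.07 to 0.121). Without wild-type DR replicate 4, 2 of the 30 genes were called, and 1051 of all genes, against 1726 of all genes with all libraries. With edgeR, 9 of the 11 tested markers of dividing cells were lower in wild-type DR livers, with sums of 2.14 to 3.99 CPM, against 8.14 to 18.6 in wild-type AL livers; their part in the fall of Ckap2 and Gtse1 was not tested.

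**Figure D4:**
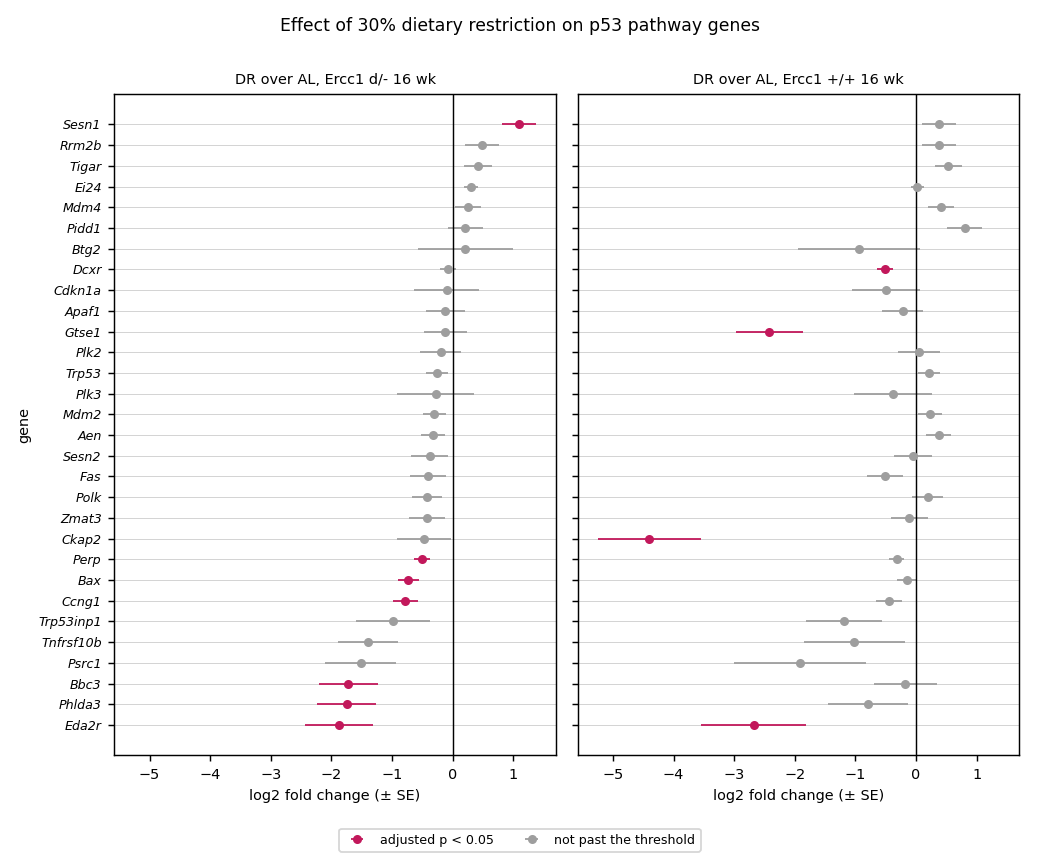
Log2 fold change (± SE) of DR over AL livers at 16 weeks for the 30 tested genes, in Ercc1 d/- mice on the left and Ercc1 +/+ mice on the right, each group n = 4; coloured points passed the adjusted p of 0.05. Bax, Bbc3, Phlda3 and Ccng1 are called on the left, Ckap2, Gtse1 and Dcxr on the right, and Eda2r on both.

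The effect of restriction differed between the genotypes for Ckap2 alone among the 30 genes, where 1.50% of all genes were called, 0.906% higher and 0.591% lower. The log2 effect in the mutant minus that in the wild type was 3.92 ± 1.01 for Ckap2 (adjusted p = 0.0468), with -0.47 in the mutant and -4.40 in the wild type. The call was lost without any single library except mutant DR replicates 1 and 2, mutant AL replicate 4 and wild-type DR replicate 2 (3.47 to 4.07, adjusted p 0.0582 to 0.106). Without wild-type DR replicate 2 the value was 6.23 (adjusted p = 0.0206). For Gtse1 the difference was 2.30 ± 0.66 (adjusted p = 0.0843), which edgeR did not call and DESeq2 did (adjusted p = 0.0156). For Bax, Bbc3 and Phlda3 it was -0.58 ± 0.24, -1.54 ± 0.71 and -0.95 ± 0.83 and did not pass (adjusted p = 0.271, 0.32 and 0.657), so a fall of these genes in the mutant that differs from the wild type was not shown. The markers of dividing cells moved with Ckap2 and Gtse1. All 11 tested had a positive difference, with a median of 1.97, against -0.04 over all genes. Of the 11, edgeR called 1 higher and DESeq2 5, and the part of dividing cells was not tested.

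In mutant livers no p53 gene passed the test between 16 and 7 weeks, where 0.686% of all genes were called, 0.355% higher and 0.331% lower. There was no 7-week wild-type group, so a change particular to the mutant and normal growth cannot be told apart here. Of the 30 genes, 0 were called by edgeR, 8 had an unadjusted p under 0.05, all of them higher at 16 weeks, and DESeq2 called 2 higher, Ccng1 and Phlda3. The median log2 fold change was 0.36, against 0.00 over all genes. Phlda3 had 22.8, 5.47, 4.99 and 4.51 CPM in mutant AL livers, against 2.36, 3.43, 0.808 and 2.39 in 7-week mutant livers, without overlap (log2 fold change 2.05 ± 0.50, unadjusted p = 4.25e-04 and adjusted p = 0.0576 by edgeR). Ccng1 had 24.4, 25.4, 26.5 and 30 CPM in 7-week mutant livers, all below the 16-week libraries (0.81 ± 0.21, adjusted p = 0.0793). The other 6 genes were Tnfrsf10b, Aen, Bax, Mdm2, Bbc3 and Psrc1, with log2 fold changes from 0.49 to 1.79 and adjusted p from 0.129 to 0.41. A fit of the 2 groups alone called 4 of the 30 genes higher, and edgeR called 2 without mutant AL replicate 2 and 1 without mutant AL replicate 3. Over all genes these fits called 568, 76 and 57, against 87 in the fit of all libraries.

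The 7-week mutant livers held the following levels of the remaining genes described by library. Every mutant AL library was above every 7-week one for 8 of the 30 genes, where 5.94% of all genes tested had this pattern. Trp53 had 12.2, 17.5, 14 and 14 CPM, Mdm2 25.9, 25.8, 25.4 and 27 CPM and Cdkn1a 24.8, 17.7, 16.3 and 16.7 CPM. Mdm2 was below every mutant AL library, while Trp53 and Cdkn1a overlapped with them. Aen had 17.3, 20.9, 19 and 20.7 CPM and Bax 15.1, 18.1, 15.9 and 14.3 CPM, both below the mutant AL libraries. Gtse1 had 1.68, 1.99, 2.13 and 2.45 CPM and Plk2 14.7, 18.8, 18.6 and 18.9 CPM, also below the mutant AL range, and Ckap2 had 1.57, 4.15, 0.955 and 3.39 CPM and Psrc1 0.787, 1.16, 0.955 and 1.67 CPM, which overlapped with it. Tnfrsf10b had 0.42, 0.443, 0.588 and 1.45 CPM, Perp 33.6, 32.3, 30.2 and 29.6 CPM and Dcxr 86.6, 86.4, 81.9 and 85.3 CPM, all overlapping with the mutant AL libraries. The 12 markers of dividing cells summed to between 12.7 and 22.4 CPM in mutant AL livers, against 16.2 to 42.9 in 7-week mutant livers.

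With natural ageing, 10% of the p53 genes tested were called, against 10.1% of all genes. Of the 30 genes, Btg2 was higher in 104-week than in 16-week wild-type livers, where 5.13% of all genes were, and Ei24 and Ckap2 were lower, where 5.00% were. The median log2 fold change was -0.18, against 0.02 over all genes. Ei24 had 126, 96.3, 116 and 119 CPM in 104-week wild-type livers, against 156, 175, 164 and 181 in wild-type AL livers, without overlap. The Ei24 log2 fold change was -0.56 ± 0.11 (adjusted p = 0.00169). Ckap2 had 0.0831, 0.316, 0.0673 and 0.0728 CPM in 104-week wild-type livers, against 1.28, 0.732, 0.539 and 0.617 in wild-type AL livers. The Ckap2 log2 fold change was -2.53 ± 0.70 (adjusted p = 0.0226). Its groups did not overlap. Every 104-week library was below every wild-type AL one for 4 of the 30 genes, where 8.73% of all genes tested had this pattern. The call was lost without 104-week replicate 1 or 3 or wild-type AL replicate 1 (-2.39 to -2.19, adjusted p 0.0627 to 0.0782), and without 104-week replicate 2 the value was -3.31. The markers of dividing cells summed to 4.16 to 7.54 CPM in 104-week livers, with Bub1 at 0, against 8.14 to 18.6 in wild-type AL livers, and their part in the Ckap2 value was not tested. Btg2 had 109, 3.64, 7.4 and 1.82 CPM in 104-week wild-type livers, against 1.83, 1.73, 1.2 and 3.7 in wild-type AL livers. The Btg2 log2 fold change was 3.85 ± 0.90 (adjusted p = 0.0088) with overlapping groups. That call rests on replicate 1. Without it 1 of the 30 genes, Ei24, was called, and 866 of all genes, against 1286 of all genes with all libraries. The Btg2 log2 fold change was then 1.03 (adjusted p = 0.143). A fit of the 2 groups alone did not call Btg2 either (adjusted p = 0.168), and Ckap2 did not pass its filter on low counts. The same library had 396 CPM of Plk3, against 60.7 to 87.4 in the other 104-week livers.

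Of the 13 genes called higher in mutant AL than in wild-type AL livers, 12 (92.3%) had every 104-week wild-type library below every mutant AL one, against 307 of the 647 genes called higher in all (47.4%). The exception was Mdm2. The genes were picked for high values in those mutant libraries, so the count is a description; over all 30 genes it was 15, where 9.41% of all genes tested did so. Trp53 had 17.7, 18.5, 16.9 and 11.5 CPM, Mdm2 48.1, 23.4, 28.8 and 26.1 CPM and Cdkn1a 15.5, 6.48, 15.6 and 1.53 CPM in 104-week livers. For Mdm2, replicate 1 was the highest of all 24 libraries, and for Trp53 and Cdkn1a the 104-week libraries overlapped with both 16-week freely fed groups. Phlda3 had 0.748, 1.11, 1.35 and 0.218 CPM, Tnfrsf10b 0.831, 0.158, 0.269 and 0.0728 CPM and Psrc1 0, 0.0791, 0.337 and 0.146 CPM in 104-week livers, each overlapping with wild-type AL livers and below every mutant AL library. Ccng1 had 15.5, 11.6, 21.1 and 16 CPM, Gtse1 0.582, 0.554, 0.135 and 0.509 CPM and Plk2 4.32, 6.4, 7.4 and 7.42 CPM in 104-week livers. These too lay below every mutant AL library. Aen had 16.6, 19.7, 14.7 and 16.6 CPM, Bax 15.8, 18, 15.1 and 11.1 CPM and Dcxr 61.9, 66.3, 51.4 and 55.6 CPM in 104-week livers, again below the mutant AL range. Perp had 35.9, 35.5, 32.7 and 33.3 CPM in 104-week livers, above every mutant AL library.

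Set directly against the 104-week wild type, the 16-week mutant AL livers had 13 of the 30 genes higher, where 7.47% of all genes were, and Perp lower, where 7.19% were, with a median log2 fold change of 0.67, against 0.00 over all genes. Genotype and age cannot be told apart in this comparison, and its mutant libraries are those compared with the 16-week wild type above. The largest were Psrc1 (4.20 ± 0.77), Ckap2 (4.05 ± 0.65), Phlda3 (3.45 ± 0.56), Gtse1 (2.98 ± 0.45) and Tnfrsf10b (2.93 ± 0.59), with adjusted p from 6.14e-05 to 0.00129. The markers of dividing cells moved with Psrc1, Ckap2 and Gtse1: they summed to 12.7 to 22.4 CPM in mutant AL livers, against 4.16 to 7.54 in 104-week livers, 5 of the 11 tested were called higher by edgeR and 7 by DESeq2, and their part was not tested. Ccng1 (1.54 ± 0.22), Plk2 (2.18 ± 0.37), Bbc3 (2.58 ± 0.52), Eda2r (2.66 ± 0.62), Aen (0.84 ± 0.20), Dcxr (0.74 ± 0.13), Sesn2 (1.18 ± 0.32) and Bax (0.60 ± 0.17) were higher as well. Without mutant AL replicate 1 the values of Psrc1, Phlda3 and Tnfrsf10b were 3.54, 2.53 and 2.24, still called, and Bax was not (0.42, adjusted p = 0.102), nor without 104-week replicate 4 (0.48, adjusted p = 0.067) or in a fit of the 2 groups alone (adjusted p = 0.072). Leaving out 104-week replicate 1 gave 3.85 for Tnfrsf10b and 3.25 for Eda2r, replicate 2 gave 4.83 for Ckap2 and replicate 3 gave 5.06 for Psrc1, all called. The Perp call (-0.37 ± 0.12, adjusted p = 0.049) was lost without mutant AL replicate 1 or 3 or any 1 of the 104-week libraries (-0.39 to -0.31, adjusted p 0.0626 to 0.149), with no filter (0.0944) and in a fit of the 2 groups alone (0.101).

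**Figure D5:**
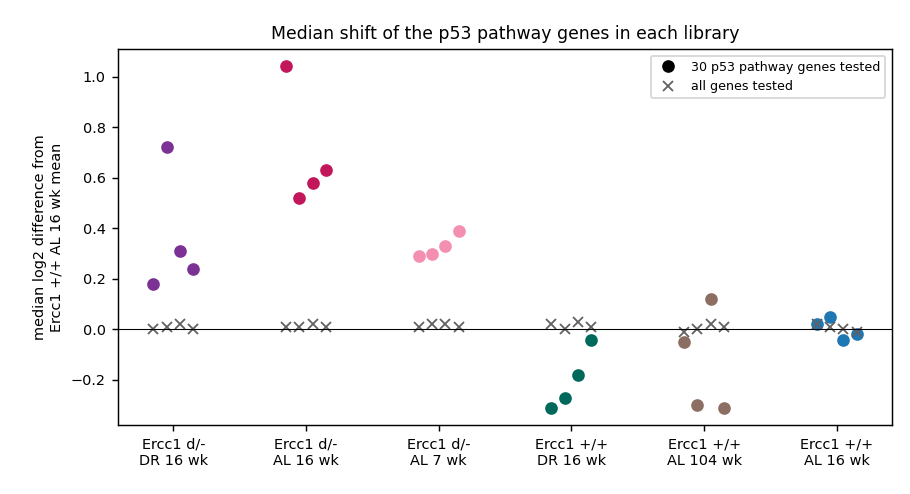
Median over the 30 tested p53 pathway genes of the log2 difference from the wild-type AL mean in each library (filled points, coloured by group), with the same median over all genes tested (crosses). The mutant AL libraries stand at 0.52 to 1.04, the mutant DR ones at 0.18 to 0.72 and the 7-week ones at 0.29 to 0.39, while the wild-type DR libraries are at -0.31 to -0.04 and the 104-week ones at -0.31 to 0.12.

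Beyond the 32 genes, 39 of 48 further genes of the p53 pathway could be tested, among them its activating kinases, cofactors and other targets. With free feeding, 4 were higher (Gdf15, Atr, Ccnd1, Cdk4), where 5.10% of all genes were, and Cop1 was lower, where 4.85% were, in mutant AL than in wild-type AL livers, with a median log2 fold change of -0.02, against 0.02 over all genes. Gdf15, a circulating stress hormone and p53 target, had 44.5, 19.4, 12.3 and 17.9 CPM in mutant AL livers, against 6, 7.78, 5.33 and 5.76 in wild-type AL livers, without overlap (1.92 ± 0.41, adjusted p = 0.00351). Atr, the kinase that answers stalled replication, averaged 29.2 ± 3.47 CPM in mutant AL and 19.7 ± 0.789 in wild-type AL livers (0.57 ± 0.14, adjusted p = 0.0085). Cop1, a ubiquitin ligase with p53 among its known substrates, averaged 36.8 ± 1.64 CPM in mutant AL and 48.5 ± 1.98 in wild-type AL livers (-0.40 ± 0.09, adjusted p = 0.00613). The G1 genes Ccnd1 (2.05 ± 0.58, adjusted p = 0.0286) and Cdk4 (0.49 ± 0.14, adjusted p = 0.0219) were higher, and the Ccnd1 call was lost with no filter (adjusted p = 0.0526) and without mutant AL replicate 3 or 4 or wild-type AL replicate 2, 3 or 4 (1.80 to 2.09, adjusted p 0.0512 to 0.0924). The Cdk4 call was lost without mutant AL replicate 1 or 3 or wild-type AL replicate 3 or 4 (0.41 to 0.47, adjusted p 0.0562 to 0.0947). Atm, the kinase that answers double-strand breaks, averaged 10 ± 3.5 CPM in mutant AL and 11.5 ± 1.82 in wild-type AL livers (adjusted p = 0.736).

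Under restriction 5 of the 39 were higher in the mutant and 3 lower, a share of 20.5% called in either direction, against 18.3% of all genes, with a median log2 fold change of 0.01, against -0.03 over all genes. Gdf15 had 15.5, 36.2, 12.4 and 11.4 CPM in mutant DR livers, against 4.22, 3.58, 7.64 and 6.53 in wild-type DR livers (1.78 ± 0.41, adjusted p = 0.0041). Atr (0.81 ± 0.14, adjusted p = 2.06e-04), Chek1, the checkpoint kinase that ATR activates (2.06 ± 0.54, adjusted p = 0.00959), and the cyclins Ccne1 (3.13 ± 0.50, adjusted p = 1.01e-04) and Ccnd1 (3.57 ± 0.62, adjusted p = 4.54e-04, and 4.36 without wild-type DR replicate 4) were also higher. Cop1 (-0.53 ± 0.09, adjusted p = 2.64e-04), Usp7, a deubiquitinase of MDM2 and p53 (-0.38 ± 0.10, adjusted p = 0.0101), and Ppp1r13l, an inhibitor of p53 (-0.86 ± 0.26, adjusted p = 0.0218), were lower. A fit of the 2 groups alone did not call Chek1, Cop1, Usp7 or Ppp1r13l (adjusted p from 0.0508 to 0.153), and Ppp1r13l lost its call without mutant DR replicate 3 or 4 or wild-type DR replicate 2 (-0.79 to -0.63, adjusted p 0.065 to 0.0993). Atm averaged 5.41 ± 0.737 CPM in mutant DR and 8.5 ± 2.64 in wild-type DR livers (adjusted p = 0.127). In the mutant, restriction went with more Cycs, which encodes cytochrome c (0.47 ± 0.11, adjusted p = 0.0064), and less Atm (-0.89 ± 0.29, adjusted p = 0.0478). No other gene of the 39 passed, so 5.13% were called, against 11.2% of all genes. The Atm call was lost with DESeq2 size factors (adjusted p = 0.051), with no filter (adjusted p = 0.0558) and without any single library except mutant AL replicate 1 (-0.95 to -0.66, adjusted p 0.0665 to 0.194). In the wild type, restriction went with less Chek2, a checkpoint kinase (-1.57 ± 0.43, adjusted p = 0.0166), and less Ccne1 (-1.63 ± 0.53, adjusted p = 0.0421). There 5.13% of the 39 were called, against 13.6% of all genes. The Chek2 call was lost without wild-type DR replicate 4 (-1.38, adjusted p = 0.065). The Ccne1 call was lost with no filter (adjusted p = 0.054), in a fit of the 2 groups alone (adjusted p = 0.0647) and without wild-type DR replicate 1, 3 or 4 or wild-type AL replicate 1 or 3 (-1.78 to -1.21, adjusted p 0.0634 to 0.18). Between 16 and 7 weeks in the mutant, edgeR called 0 of the 39, where 0.686% of all genes were called. An unadjusted p under 0.05 held for 5, and DESeq2 called 0. Between mutant AL and 104-week wild-type livers, edgeR called 4 of the 39 higher and 7 lower in the mutant. That is 28.2%, against 14.7% of all genes (7.47% higher and 7.19% lower). The median log2 fold change of the 39 was -0.02, against 0.00 over all genes.

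Markers of several other cell types moved with the genotype. The 10 macrophage markers summed to between 174 and 349 CPM in mutant AL livers, against 116 to 169 in wild-type AL livers, with 7 called higher, and to between 270 and 379 CPM in mutant DR livers, against 91.2 to 159 in wild-type DR livers, with 10 called higher. None of the 10 was at 0 in a whole group. Of the 3 erythroid markers tested, 2 were called lower in mutant AL than in wild-type AL livers, and between mutant DR and wild-type DR livers 0 were called by edgeR, 0 had an unadjusted p under 0.05 and DESeq2 called 0. The 5 neutrophil markers summed to 4.78 to 8.58 CPM in mutant AL livers, with Mpo at 0, against 7.98 to 10.6 in wild-type AL livers, and 1 of the 3 tested was called higher. Ly6g, the largest part of these sums, had 2.01 to 6.55 CPM in mutant AL livers, against 7.52 to 10 in wild-type AL livers. The other 2 tested, S100a8 and S100a9, had positive log2 fold changes. The 5 markers thus did not move in 1 direction. In mutant DR livers they summed to 4.84 to 7.76 CPM, against 2.51 to 7.74 in wild-type DR livers, with Mpo and Elane at 0 in both, and 2 of the 3 were called higher. With free feeding the markers of dividing cells summed to 12.7 to 22.4 CPM in mutant AL livers, against 8.14 to 18.6 in wild-type AL livers, and of the 11 tested 0 were called by edgeR, 1 had an unadjusted p under 0.05 and DESeq2 called 0. Of the 4 cholangiocyte, 6 stellate and 5 endothelial markers tested, edgeR and DESeq2 called 0 between genotypes, with free feeding or under restriction. The part of these cells in the p53 values was not tested.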

How the data were processed

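RNA-seq of 24 mouse liver libraries was deposited by the authors as counts of reads per gene, raw whole numbers for 22429 genes. Reads were trimmed with Trimmomatic 0.39, aligned with STAR 2.7.0f to GRCm38.p6 and counted with featureCounts of Subread 1.6.4, per the submitters' processing notes. No source used here gives the strandedness, the annotation or the treatment of reads with several matches, so reads of overlapping genes may be shared. Groups came from the labels. From the counts, genes were kept with filterByExpr (minimum count 10, minimum total 15), scaled by TMM and fitted with edgeR 4.0.16 (glmQLFit, robust, 1 mean a group) in R 4.3.3, with Benjamini-Hochberg adjustment over the 12690 genes kept. CPM are normalised by the TMM library sizes, and log2 levels used a pseudocount of 0.5 CPM. Fold changes are log2 with SE, and group values are mean ± SD. Intervals on summed counts are exact, at 95%, and cover counting error only. Library totals of 13269792 to 20624803 counts limit genes of a few counts, such as Ckap2, most. Alternatives were DESeq2 1.42.0, its size factors, no filter, only the groups compared, a replicate block and leaving out each library; the script was tested on simulated data. The members and lists were chosen with earlier results of these data known. Values in every library are given for Trp53, Mdm2, Cdkn1a and the members with the smallest adjusted p between genotypes up to 14, and for members called with age or in the difference between genotypes; other genes named with values in every library, or in a count of 5 or fewer, were chosen after their values were seen. Promoters came from RefSeq tables of GRCm38.p6. Libraries of a group differed by at least 8.32 times the chi-square expected from counting, so none was counted as a repeat.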

Additional observations from a re-analysis of the deposited data

Results flagged for a closer look

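Of 180 sets of 4 libraries checked for a library far from the other 3, 22 held one. The check marks about 1 in 20 sets of independent, normally distributed values. CPM of low counts and of genes that vary together need not be such values, and the share over all genes was not computed. Whether 22 is more than chance gives was therefore not tested. Mutant AL replicate 1 was high for Phlda3 (22.8 CPM, others 4.51 to 5.47) and Bax (30.9 CPM, others 18.9 to 20.9), and mutant AL replicate 4 for Gtse1 (4.77 CPM, others 2.96 to 3.19). Mutant DR replicate 2 was high for Phlda3 (5.31 CPM, others 1.69 to 2.16), Aen (28.3 CPM, others 22.6 to 23.2) and Plk3 (116 CPM, others 23.1 to 36.7).

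Among the 7-week mutants, replicate 1 was high for Cdkn1a (24.8 CPM, others 16.3 to 17.7), Bbc3 (6.87 CPM, others 3.16 to 3.53) and Ei24 (146 CPM, others 120 to 123) and low for Plk2 (14.7 CPM, others 18.6 to 18.9). Replicate 3 was high for Mdm4 (20.2 CPM, others 16.4 to 16.9) and replicate 4 for Tnfrsf10b (1.45 CPM, others 0.42 to 0.588).

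Wild-type DR replicate 4 was high for Mdm2 (37.1 CPM, others 23.4 to 24.5) and Polk (7.98 CPM, others 4.62 to 4.8), replicate 3 for Bbc3 (5.46 CPM, others 0.634 to 1.29) and replicate 2 for Ckap2 (0.143 CPM, others 0). The 104-week replicate 1 was high for Btg2 (109 CPM, others 1.82 to 7.4) and Plk3 (396 CPM, others 60.7 to 87.4), replicate 2 high for Ckap2 (0.316 CPM, others 0.0673 to 0.0831) and low for Mdm4 (5.77 CPM, others 15 to 16.3), and replicate 3 low for Gtse1 (0.135 CPM, others 0.509 to 0.582). Wild-type AL replicate 4 was low for Mdm4 (10.6 CPM, others 13.2 to 13.3).

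The effect of restriction on Ckap2 differed between genotypes by 3.92 on the log2 scale (edgeR adjusted p = 0.0468), mutant minus wild type.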

How the results depend on the processing

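All 55 calls of a member in a comparison were kept with DESeq2 size factors and with the DESeq2 test, 53 with no filter on low counts, 51 with the replicate block and 38 of the 49 that could be fitted with only the groups compared; 77 of 448 refits without 1 library lost the call, in 19 of the 55. No called value changed sign. The labels do not say whether libraries of the same number belong together. Same-numbered correlations ran from -0.27 to 0.35, which neither shows nor excludes a shared block. With the replicate block 0 of the 30 genes were called for the difference in diet effect between genotypes, instead of 1. Between genotypes, 13 were called with free feeding and 12 under restriction. For restriction, 6 were called in the mutant and 5 in the wild type. Between 16 and 7 weeks 0 were called, with natural ageing 3 and against 104 weeks 13. The member calls lost with the block were Ckap2 between genotypes with free feeding (adjusted p = 0.0622) and in the diet difference (3.98, adjusted p = 0.0604), Eda2r for restriction in the mutant (0.0562) and Perp against 104 weeks (0.0614).

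With only the groups compared, the count of members called became 20 between genotypes with free feeding (18 higher and 2 lower), instead of 14. The count became 7 between genotypes under restriction, 3 for restriction in the mutant, 1 for restriction in the wild type, 4 between 16 and 7 weeks and 1 with natural ageing. Over all genes it became 2202 between genotypes with free feeding, 877 under restriction, 986 for restriction in the wild type, 568 between 16 and 7 weeks and 126 for the difference in diet effect. DESeq2 called 2 members and 201 genes between 16 and 7 weeks, and 2 members and 388 genes for the difference in diet effect.

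Without 1 library, the members called ranged from 3 to 8 for restriction in the mutant, 2 to 5 in the wild type, 0 to 2 between 16 and 7 weeks, 1 to 3 with natural ageing and 0 to 2 for the difference in diet effect. All genes called ranged from 1053 to 1414 for restriction in the mutant and 1051 to 2009 in the wild type. They ranged from 29 to 76 between 16 and 7 weeks, 792 to 1533 with natural ageing and 109 to 225 for the difference in diet effect. Mdm2 between genotypes under restriction ranged from -0.02 without mutant DR replicate 2 to 0.32 without wild-type DR replicate 4. The cause of these shifts was not tested. Genes of a few counts a library, Ckap2, Psrc1, Tnfrsf10b and Eda2r, are limited by depth.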

Other observations

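With natural ageing, edgeR called 3 of the 39 other pathway genes higher (7.69%), where 5.13% of all genes were. It called 0 lower, where 5.00% of all genes were. In the lower direction 6 had an unadjusted p under 0.05, and DESeq2 called 3. Gadd45a, a stress-induced growth arrest gene, had 58, 12.6, 6.93 and 16.7 CPM in 104-week wild-type livers, against 1.56, 3.93, 4.07 and 8.29 in wild-type AL livers, a log2 fold change of 2.41 ± 0.52 (adjusted p = 0.00443). Replicate 1 was by far the highest and the groups overlapped; without it the value was 1.43 (adjusted p = 0.0287), and in a fit of the 2 groups alone the gene was not called (adjusted p = 0.102). Bcl2l1, which encodes the survival protein BCL-XL, had 91.5, 33.7, 36 and 20.7 CPM in 104-week wild-type livers, against 11.2, 16.3, 12.7 and 13.8 in wild-type AL livers, without overlap (1.75 ± 0.35, adjusted p = 0.00215), and 1.15 without 104-week replicate 1 (adjusted p = 0.0098). Ccne1, a cyclin of the G1 to S transition, had 2.83, 11.1, 4.11 and 6.33 CPM in 104-week wild-type livers, against 2.28, 0.798, 1.32 and 0.822 in wild-type AL livers, without overlap (2.19 ± 0.44, adjusted p = 0.00174). The 7 lymphocyte markers summed to 29.5 to 35.2 CPM in 104-week livers, against 4.31 to 10.7 in wild-type AL livers, and the macrophage markers to 164 to 314 CPM in 104-week livers, against 116 to 169 in wild-type AL livers; their part in these values was not tested.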
